A study of Mus musculus with 4 samples.

Results

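Interferon-stimulated genes were examined in elicited peritoneal macrophages of the mouse after a night in culture with TGFb2, a transforming growth factor, or with its vehicle, PBS. A list of 41 genes was used, and a gene was taken as present where at least 1 probe set of the array carried its symbol alone. By this rule 30 of the 41 genes were found, with 36 probe sets, among 8252 genes so named on the array. Irf2, Stat2, Oas1a, Oas2, Oas3, Oasl1, Oasl2, Ifi44, Ifi203, Ifi205 and Bst2 were not analysed here, and 2 probe sets that share the symbols of Ifi203, Ifi204 or Ifi205 with other genes were left out.

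The cells came from female BALB/c mice aged 6 to 8 weeks that had received 2 ml of 3% thioglycolate, an irritant that recruits macrophages, into the peritoneum 4 days earlier. Exudate cells were kept in serum-free medium with porcine TGFb2 (5 ng, no volume given) or PBS, and the adherent cells, over 95% of them F4/80 positive per the labels' protocols, were lysed. No interferon and no microbial stimulus is named in the labels, so the PBS arrays give the basal level in thioglycolate-elicited cells. Each group held 2 arrays, and nothing in the labels says whether these came from separate mice or cultures. The p-values below thus cover only the spread among these 4 arrays, and part or all of it may be technical.

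Interferons are secreted proteins that warn cells of infection. Type I interferons bind the receptor Ifnar1/Ifnar2, whose kinases Jak1 and Tyk2 activate a transcription factor complex that holds Stat2 and Irf9 and binds the interferon-stimulated response element in promoters. Interferon gamma acts through Ifngr1/Ifngr2 and leads to binding at the gamma-activated site. The induced genes encode RNA sensors, enzymes that block viral RNA, GTPases that attack vacuoles holding microbes, and membrane proteins that hinder viral entry, and macrophages express many of them at a low tonic level.

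The promoters of several of these genes are shown because they carry the element that the family is known for. The response element core was searched as GAAA, any 2 bases and GAAA again on both strands, in windows from 250 bases before to 50 bases after each start site in RefSeq (GRCm38.p6, a C57BL/6J assembly, whereas the mice were BALB/c). Of the 41 listed genes, 35 had such a window and 20 of these, 57.1%, held the core, against 3.99% of all 27025 genes in the table. The stretches below are 60 bases each, 5′ to 3′ along the gene, and capitals mark the core. It reads TTTC first where it lies on the opposite strand.
Isg15, chr4:156200859-156200918, minus strand: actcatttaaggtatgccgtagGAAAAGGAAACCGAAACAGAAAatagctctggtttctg
Ifit1, chr19:34640759-34640818, plus strand: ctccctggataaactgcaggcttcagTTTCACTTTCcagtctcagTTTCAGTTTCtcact
Gbp2, chr3:142620583-142620642, plus strand: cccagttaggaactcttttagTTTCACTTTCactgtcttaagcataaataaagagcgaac
Gbp3, chr3:142559974-142560033, plus strand: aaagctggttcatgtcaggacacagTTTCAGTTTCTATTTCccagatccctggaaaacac
Irgm1, chr11:48871421-48871480, minus strand: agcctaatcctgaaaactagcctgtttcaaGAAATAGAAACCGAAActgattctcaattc
Igtp, chr11:58199496-58199555, plus strand: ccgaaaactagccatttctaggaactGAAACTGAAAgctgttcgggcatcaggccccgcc
Ifitm2, chr7:140955972-140956031, minus strand: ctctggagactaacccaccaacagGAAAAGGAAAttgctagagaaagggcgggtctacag
Isg15 held 3 overlapping cores, Ifit1, Gbp3 and Irgm1 held 2 each, and Gbp2, Igtp and Ifitm2 held 1 each in these stretches.

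The gamma-activated site was searched as TTCNNNGAA. It was found for 12 of the 35 genes, 34.3%, against 9.55% of all genes. It is shown for Irf1, an early target of interferon gamma, and for Ifitm6, the gene of the list that passed the test below, with the site in capitals.
Irf1, chr11:53769894-53769953, plus strand: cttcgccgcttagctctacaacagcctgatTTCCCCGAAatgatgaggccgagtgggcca
Ifitm6, chr7:141016893-141016952, minus strand: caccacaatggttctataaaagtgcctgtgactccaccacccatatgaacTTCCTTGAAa
The window of Ifitm6 held no response element core. A match is only a description of these letters.

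**Figure D1:**
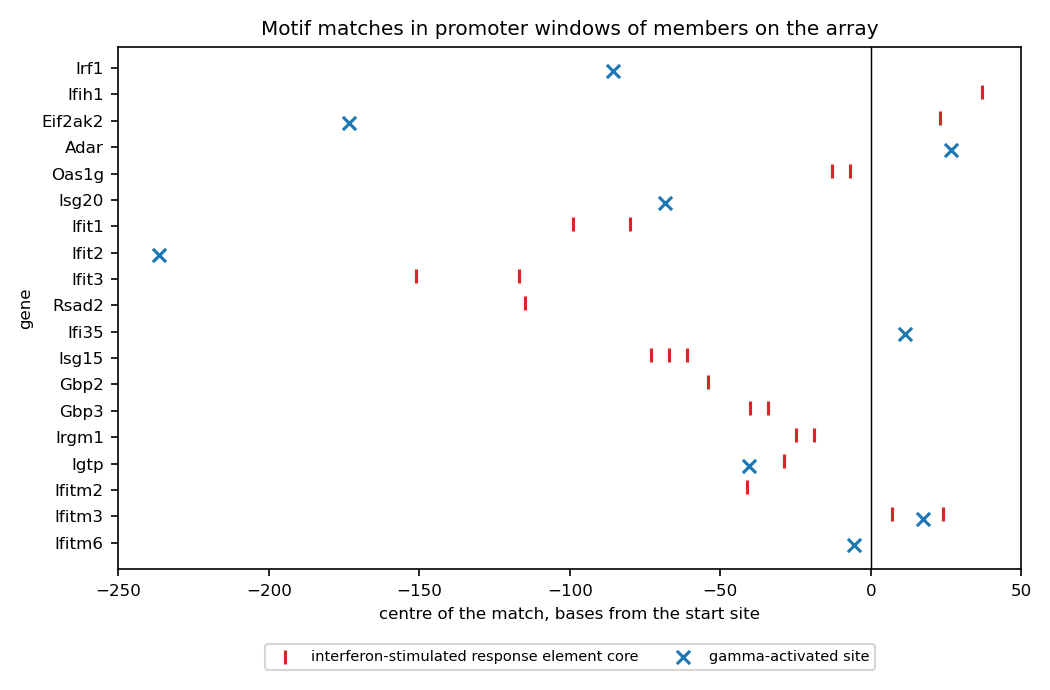
Positions of motif matches in the promoter windows of genes on the array, with the centre of each match in bases from the start site on the horizontal axis and 1 gene per row. Red bars are the response element core and blue crosses the gamma-activated site; most red bars lie before the start site, and those of Ifih1, Eif2ak2 and Ifitm3 lie after it.

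Values are MAS5 signals, which are intensities on a linear scale, and their precision is limited by the number of arrays. A signal cannot be compared between probe sets, only between arrays. Differences are TGFb2 minus PBS on the log2(signal + 15) scale, which understates the change of dim genes. A probe set was tested where its mean log2 level over the 4 arrays reached the 40th percentile, which lay near a signal of 24.0. Of the 36 probe sets 23 were tested, for 22 genes, and each gene was then counted by its brightest tested probe set. The median signal of all probe sets was 40.1 to 45.6 over the 4 arrays.

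Of the 22 tested genes 1 fell with TGFb2, 0 rose and 21 did not pass an adjusted p of 0.05 in limma. Over all 5639 genes tested, 1.19% were called by the same rule, 0.319% lower and 0.869% higher. The gene that fell was Ifitm6. At an unadjusted p under 0.05 there were 6 of the 22 genes, 5 lower and 1 higher, where 12.0% of all genes reached that level. The arrays of both groups did not overlap for 11 of the 22 genes (7 lower, 4 higher), beside 43.8% of all genes, of which 21.7% were lower and 22.2% higher. The median difference was -0.08 over the 22 genes and 0.0027 over all genes, the lower quartile -0.44 against -0.19, and the upper quartile 0.20 against 0.19.

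**Figure D2:**
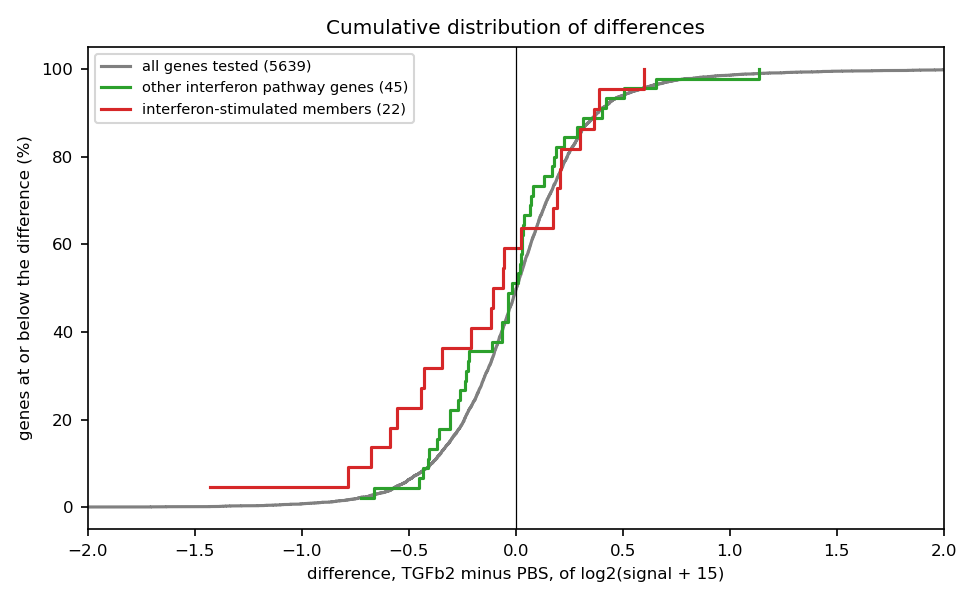
Cumulative share of genes (vertical axis, %) at or below a given log2 difference between TGFb2 and PBS (horizontal axis), for the 22 tested interferon-stimulated genes (red), 45 other interferon pathway genes (green) and all 5639 genes tested (grey). The red line lies above the grey line below 0, with a lower quartile of -0.44 against -0.19, and close to it above 0.

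The interferon-induced transmembrane (Ifitm) proteins sit in membranes, and Ifitm3 in particular is known to block entry of enveloped viruses from endosomes. Ifitm6 had signals of 122 and 169.5 with PBS and of 40.1 and 48.2 with TGFb2. Both TGFb2 arrays lay far below both PBS arrays. The means were 146 ± 33.5 and 44.2 ± 5.73 (SD, n = 2 arrays per group), a 3.30-fold lower signal, and the log2 difference was -1.43 ± 0.22 (SE, adjusted p = 0.0369 in limma). The call depended on every array: with PBS replicate 1 or PBS replicate 2 left out adjusted p was 0.0534 or 0.20, and with TGFb2 replicate 1 or TGFb2 replicate 2 left out it was 0.13 or 0.082, at log2 differences of -1.64 to -1.22. It was 0.076 when the variance was fitted with no trend on intensity, and 0.16 in a fit that kept the dim probe sets. In such bulk samples, fewer cells of a type and less RNA per cell cannot be told apart.

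Ifitm3 had signals of 1935 and 2549.6 with PBS and of 1261 and 1794 with TGFb2. Both TGFb2 arrays lay below both PBS arrays, but TGFb2 replicate 2 came close to PBS replicate 1. The log2 difference was -0.56 with a 95% interval of -1.03 to -0.08 (adjusted p = 0.35), so Ifitm3 did not pass. With an array left out it ran from -0.81 (without TGFb2 replicate 2) to -0.31 (without TGFb2 replicate 1). Ifitm1 had signals of 35.1 and 22.4 with PBS and of 43.4 and 27.8 with TGFb2, and Ifitm2 of 26.0 and 26.6 with PBS and of 37.7 and 28.3 with TGFb2. The groups overlapped for Ifitm1 and not for Ifitm2, and both genes lay just above the level of the filter. Their log2 differences were 0.21 in each case, with intervals of -0.48 to 0.89 for Ifitm1 and -0.41 to 0.83 for Ifitm2. The start sites of these 4 genes lie within 60.9 kb on chromosome 7, with that of Ifitm6 6.15 kb from that of Ifitm3. The difference in response between these neighbours was not tested.

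**Figure D3:**
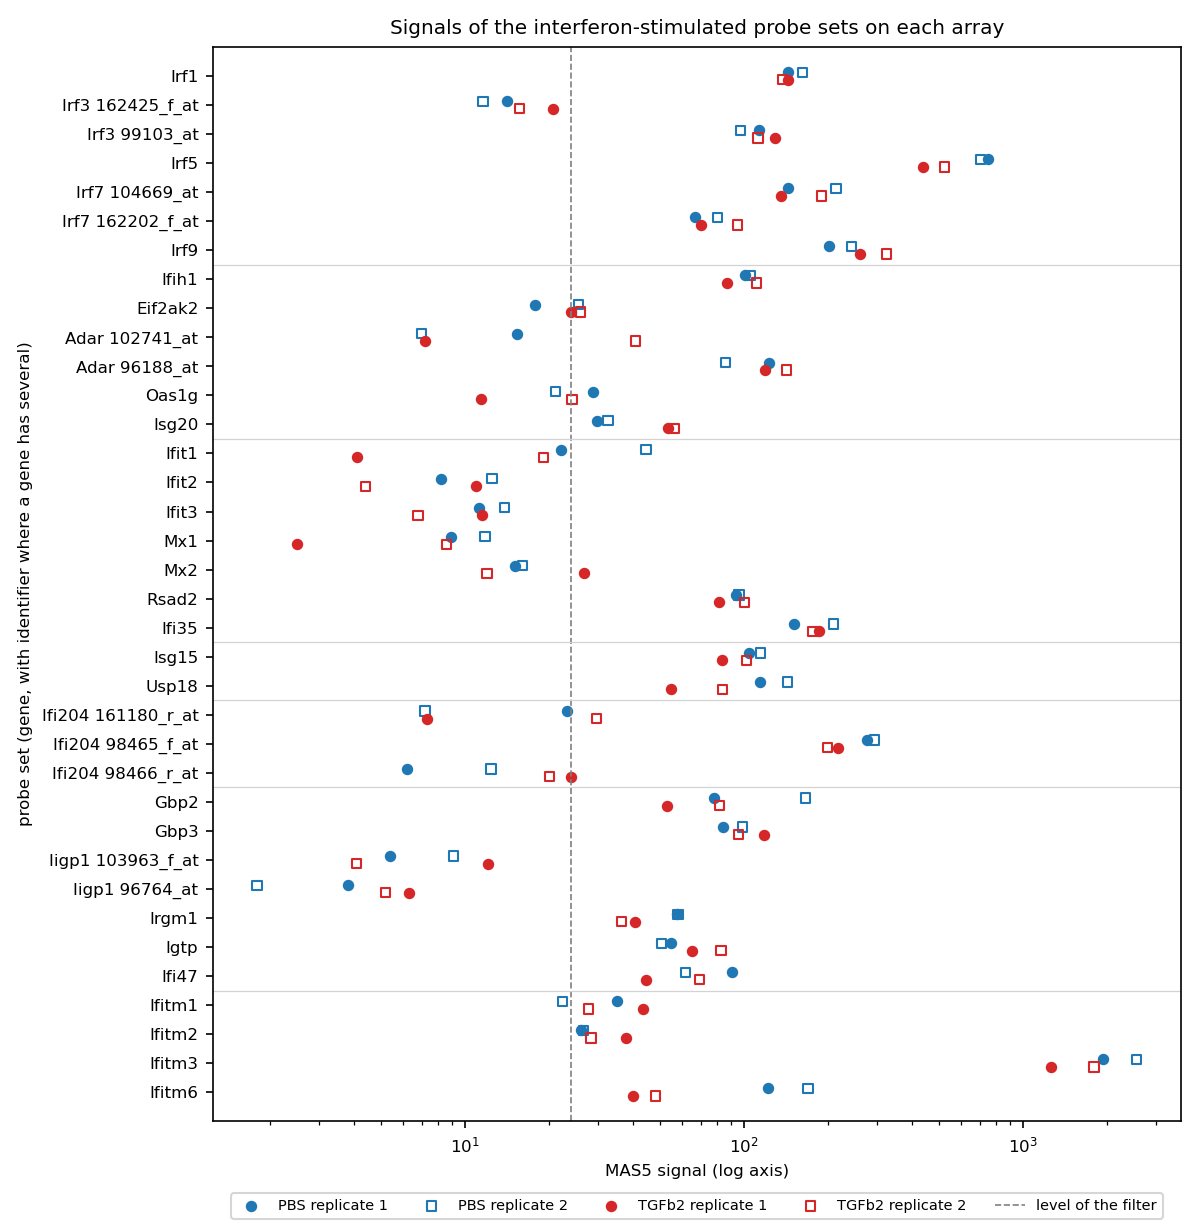
MAS5 signal (horizontal log axis) of each of the 36 probe sets (rows, grouped by role) on the PBS arrays (blue) and the TGFb2 arrays (red), with filled circles for replicate 1 and open squares for replicate 2. Ifitm6 shows the widest gap between the groups among tested genes, 122 and 169.5 against 40.1 and 48.2, and most Ifit, Mx and Iigp1 points lie left of the dashed filter level near 24.0.

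Isg15, a ubiquitin-like protein that is attached to other proteins after interferon exposure, had signals of 105 and 114.5 with PBS and of 83.7 and 102 with TGFb2. The groups did not overlap, but the gap between PBS replicate 1 and TGFb2 replicate 2 was small. Its log2 difference was -0.21, with an interval of -0.66 to 0.24 (limma adjusted p = 0.74). Usp18 removes Isg15 from proteins and also dampens type I interferon receptor signalling. It had signals of 114 and 143 with PBS and of 54.9 and 83.7 with TGFb2. Both TGFb2 arrays were lower than both PBS arrays. The log2 difference was -0.79, with an interval of -1.33 to -0.24 (adjusted p = 0.22), the lowest after that of Ifitm6 among the 22 genes, and it did not pass.

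Among the transcription factors 5 of 5 were tested and 0 passed. At an unadjusted p under 0.05 in limma there was 1, beside 12.0% of all genes. Irf5, which drives inflammatory cytokine genes downstream of Toll-like receptors, had signals of 748 and 704 with PBS and of 439 and 522 with TGFb2. Every TGFb2 value lay below every PBS value, and the log2 difference was -0.59, with an interval of -0.96 to -0.21 (limma adjusted p = 0.18). Irf9, the DNA-binding subunit of the type I interferon complex, had signals of 202 and 243 with PBS and of 260.0 and 323 with TGFb2. The TGFb2 arrays were the higher ones without overlap, with a log2 difference of 0.37 and an interval of -0.08 to 0.81 (adjusted p = 0.52).

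Irf7, which amplifies type I interferon production, had signals of 144 and 214 with PBS and of 136 and 189 with TGFb2 in its brighter probe set. Here the replicates of a group were further apart than the groups, at a log2 difference of -0.12 (limma adjusted p = 0.91). The dimmer probe set of Irf7 gave 66.8 and 80.2 against 70.3 and 94.9, a log2 difference of 0.13 (adjusted p = 0.87). The probe sets of Irf7 thus did not share a sign, but the name of the dimmer one ends in _f_at. That ending marks probes that can match related genes. Irf1 had signals of 144 and 162 with PBS and of 144 and 138 with TGFb2. The groups touched at 144, with a log2 difference of -0.11 and an interval of -0.51 to 0.30. Irf3, which is present before infection and is activated by phosphorylation, had signals of 113 and 97.1 with PBS and of 129 and 112 with TGFb2. Its groups overlapped, with a log2 difference of 0.17 and an interval of -0.26 to 0.61. The dimmer probe set of Irf3 was not tested. It gave 14.1 and 11.6 with PBS and 20.7 and 15.7 with TGFb2, higher without overlap.

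**Figure D4:**
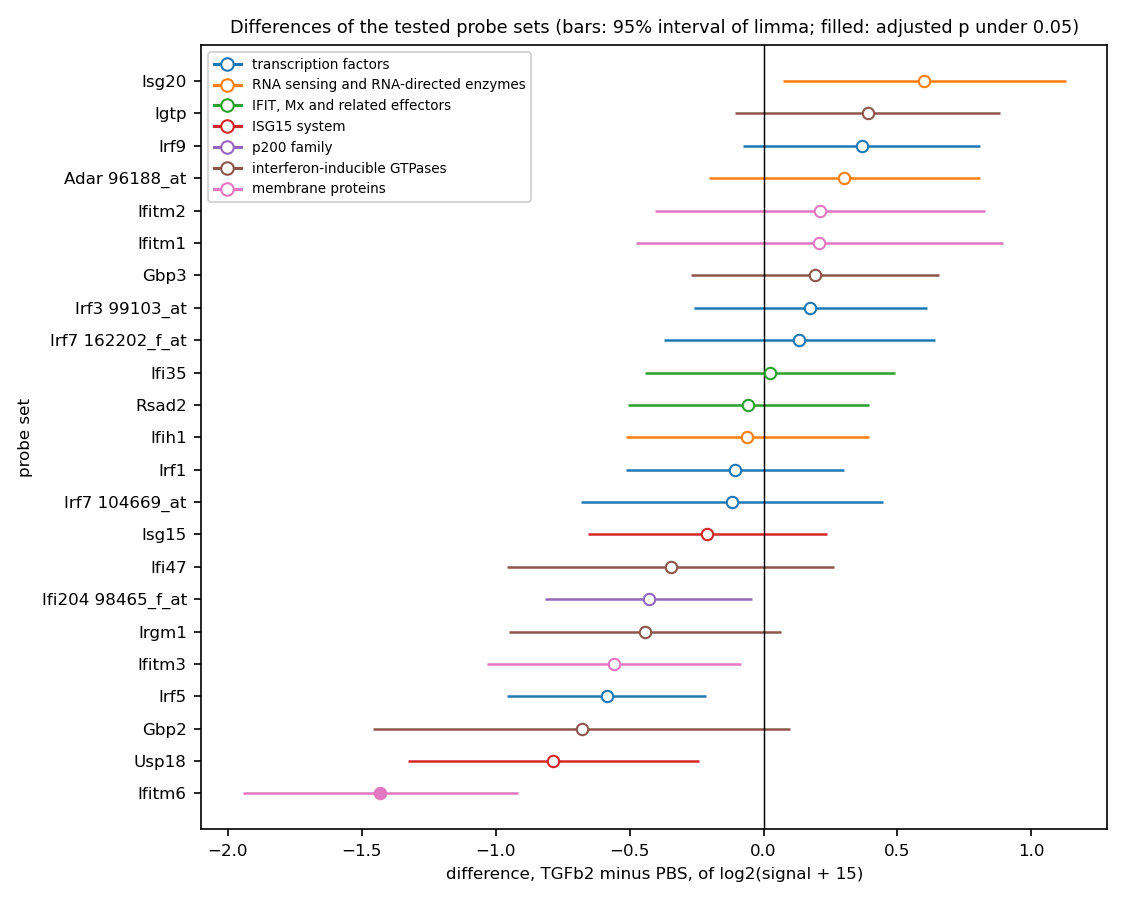
Log2 difference between TGFb2 and PBS (horizontal axis) for the 23 tested probe sets (rows, ordered by difference), coloured by role, with bars for the 95% interval from limma. The only filled point, which marks an adjusted p under 0.05, is Ifitm6 at -1.43; the intervals of Usp18, Irf5, Ifitm3, Ifi204 and Isg20 also lie on 1 side of 0 before adjustment.

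Of 5 genes for RNA sensors and RNA-directed enzymes 3 were tested and 0 passed. At an unadjusted p under 0.05 in limma there was 1, beside 12.0% of all genes. Isg20, an exonuclease that degrades single-stranded RNA, had signals of 29.8 and 32.6 with PBS and of 53.6 and 56.4 with TGFb2. The arrays of a group lay close together and the groups far apart, and Isg20 was the tested gene with the largest difference upwards, 0.60 with an interval of 0.07 to 1.13 (adjusted p = 0.37). Ifih1, the sensor of long double-stranded RNA also called MDA5, had signals of 101 and 105 with PBS and of 86.9 and 111 with TGFb2. The groups overlapped, with a log2 difference of -0.06 and an interval of -0.51 to 0.39. Adar, which edits adenosine in double-stranded RNA, had signals of 123 and 85.7 with PBS and of 119 and 142 with TGFb2 in its brighter probe set, which overlapped (log2 difference 0.30, interval -0.20 to 0.81). The other probe set of Adar lay between 7.0 and 40.8, with TGFb2 replicate 2 the highest, and was not tested.

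The kinase Eif2ak2 (PKR), which halts translation when it binds double-stranded RNA, lay at 17.9 and 25.5 with PBS and at 24.0 and 25.9 with TGFb2, just below the level of the filter. Oas1g, of the family that makes the activator of RNase L, lay at 28.8 and 21.1 with PBS and at 11.4 and 24.2 with TGFb2. Neither gene was tested, and the groups overlapped for both.

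The classical antiviral effectors were mostly dim. Of 7 genes of the Ifit and Mx families and related effectors 2 were tested and 0 passed. At an unadjusted p under 0.05 in limma there were 0, beside 12.0% of all genes. Rsad2 (viperin), which makes a chain-terminating nucleotide, had signals of 93.3 and 96.0 with PBS and of 81.2 and 100.4 with TGFb2. Ifi35 had signals of 151 and 209 with PBS and of 186 and 177 with TGFb2. The groups overlapped for both, with log2 differences of -0.06 and 0.02 and intervals of -0.51 to 0.39 and -0.44 to 0.49.

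Ifit1, which binds viral RNA that lacks the host cap methylation, had signals of 22.1 and 44.6 with PBS and of 4.1 and 19.1 with TGFb2. All TGFb2 values lay below the PBS values, but the mean level fell under the filter and the gene was not tested. Ifit2 lay between 4.4 and 12.5, Ifit3 between 6.8 and 13.9 and Mx2 between 12.0 and 26.8 over the 4 arrays, each with overlapping groups. Mx1, a GTPase against influenza virus that is defective in many laboratory strains, BALB/c included, lay at 8.9 and 11.8 with PBS and at 2.5 and 8.6 with TGFb2. In a fit without the filter, 0 of all 13 untested probe sets of the list passed in limma (adjusted p 0.52 to 0.98). At an unadjusted p under 0.05 there was 1, a dim probe set of Ifi204 that was higher with TGFb2. In that fit 1135 of all 12422 probe sets reached this level.

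Guanylate-binding proteins and immunity-related GTPases attack vacuoles that hold bacteria or parasites and respond mainly to interferon gamma. Of 6 such genes 5 were tested and 0 passed, with 0 at an unadjusted p under 0.05 in limma, beside 12.0% of all genes. Gbp2 had signals of 78.0 and 166.5 with PBS and of 53.0 and 81.8 with TGFb2. PBS replicate 2 stood well above the other 3 arrays, which overlapped, and the log2 difference of -0.68 had an interval of -1.46 to 0.10 (adjusted p = 0.50). With an array left out the difference of Gbp2 ran from -1.16 (without PBS replicate 1) to -0.20 (without PBS replicate 2). Gbp3, its neighbour in the genome, had signals of 84.3 and 98.7 with PBS and of 118 and 95.5 with TGFb2, overlapping, with a log2 difference of 0.19 and an interval of -0.27 to 0.65.

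Irgm1, a regulator of the other immunity-related GTPases, had signals of 57.5 and 58.0 with PBS and of 40.8 and 36.3 with TGFb2. Igtp (Irgm3), of the same family, had signals of 54.7 and 50.5 with PBS and of 65.1 and 82.7 with TGFb2. The groups did not overlap for either gene and lay in opposite directions, at log2 differences of -0.44 (interval -0.95 to 0.07) and 0.39 (interval -0.11 to 0.88). Neither passed (limma adjusted p = 0.50 and 0.55), and both promoters hold the response element core shown above. Ifi47 (Irg-47) had signals of 90.6 and 61.7 with PBS and of 44.5 and 69.1 with TGFb2, overlapping, and its log2 difference was -0.35 (interval -0.96 to 0.26). Iigp1 lay between 1.8 and 12.1 over the arrays in both of its probe sets and was not tested. One of them gave 3.8 and 1.8 with PBS and 6.3 and 5.2 with TGFb2, higher without overlap, and the groups overlapped in the other.

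Ifi204, of the p200 family of nuclear and DNA-binding proteins, had signals of 276 and 294 with PBS and of 216 and 199.5 with TGFb2 in its only tested probe set. Both TGFb2 arrays were lower, with a log2 difference of -0.43 and an interval of -0.82 to -0.04 (adjusted p = 0.38). The name of this probe set ends in _f_at, which marks probes that can match related genes, so the value may not be that of Ifi204 alone. The other probe sets of Ifi204 lay below the filter and were not tested. One had signals of 6.2 and 12.4 with PBS and of 23.9 and 20.1 with TGFb2, higher without overlap and so opposite to the tested probe set, and the other lay between 7.2 and 29.6 with overlapping groups.

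The differences of genes with and without the response element core spanned overlapping ranges. Among 9 tested genes with the core the median difference was -0.06, with 6 below 0 and 3 above, and the values ran from -0.68 to 0.39. Among 11 tested genes whose windows held none it was 0.02, with 5 below 0 and 6 above, from -1.43 to 0.60. Usp18 and Ifi204, at -0.79 and -0.43, had no promoter window and are in neither group. This is a description over few genes, with no test.

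The interferon-stimulated genes also differed between the arrays of a group. PBS replicate 2 was higher than PBS replicate 1 for 16 of the 22 genes, by a median of 0.09 on the log2 scale, and TGFb2 replicate 2 was higher than TGFb2 replicate 1 for 14 of 22, by a median of 0.23. Over all genes tested the shares were 48.9% and 47.2%, with medians of -0.01 and -0.02. In both groups replicate 2 was the higher array for 10 of the 22 genes, 45.5%, against 25.6% of all genes. These 10 were Irf7, Irf9, Ifih1, Isg20, Rsad2, Isg15, Usp18, Gbp2, Ifitm3 and Ifitm6. Gbp2 had the widest gap between the PBS arrays, 0.96. Of the 9 macrophage markers 5 had replicate 2 higher in both groups (Adgre1, Cd14, Csf1r, Mertk and Msr1), 2 had it lower in both (Cd68 and Fcgr1) and 2 were mixed (Itgam and Lyz2). The median size of the difference between the group means was 0.32 over the 22 genes, and 0.19 over all genes tested. Between the single PBS arrays it was 0.19 over the 22 genes and 0.18 over all genes. Between the single TGFb2 arrays it was 0.27 and 0.23. Means of 2 arrays vary less than single arrays, so the values between and within groups are not alike in measure.

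**Figure D5:**
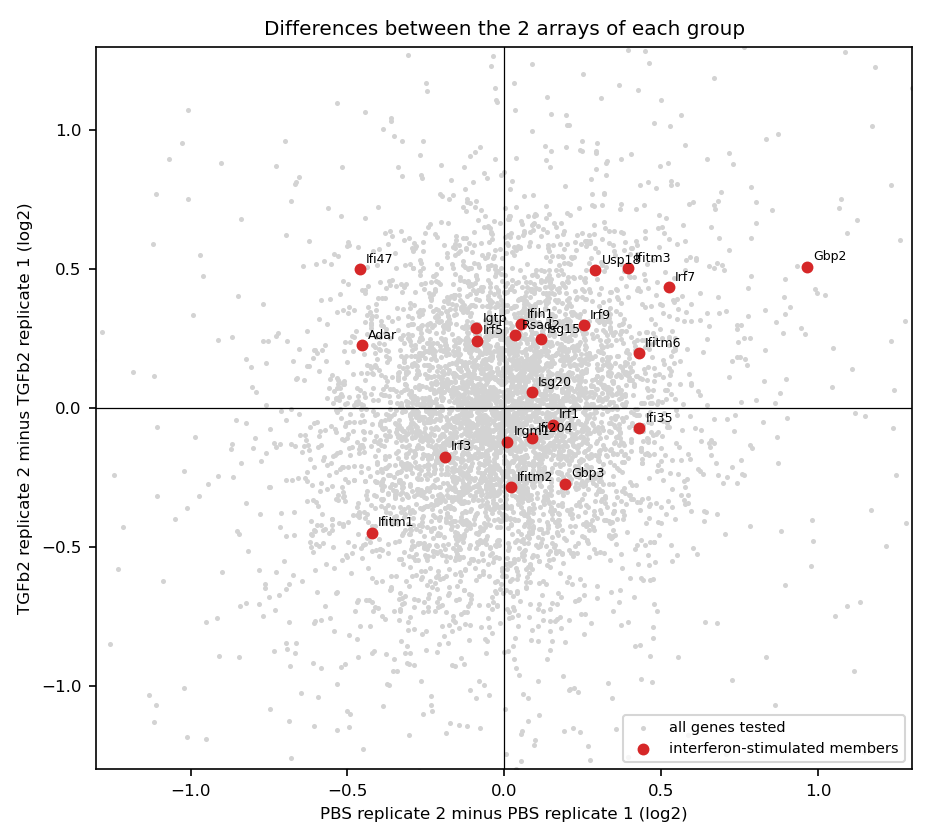
Difference between the arrays of the PBS group (horizontal axis, log2) and of the TGFb2 group (vertical axis, log2) for each tested interferon-stimulated gene (red, named) and for all genes tested (grey; 87 of 5639 lie outside the plotted range). Of the 22 red points 10 lie to the upper right of both zero lines, where replicate 2 was the higher array of both groups, among them Gbp2 at 0.96 and 0.51 and Irf7 at 0.52 and 0.44.

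The upstream part of the pathway showed no gene past the threshold. Of 20 genes for interferons, receptors and signalling on the array 14 were tested, and 0 rose and 0 fell. At an unadjusted p under 0.05 in limma there was 1 of the 14 (7.14%), beside 12.0% of all genes. Ifnb1, the gene of interferon beta, had signals of 2.1 and 2.2 with PBS and of 2.1 and 14.3 with TGFb2, and Ifng also lay below the filter. The type I receptor chain Ifnar1 had signals of 205 and 175 with PBS and of 148 and 218.5 with TGFb2, and Ifnar2 of 237 and 246 against 255 and 239. Both overlapped, with log2 differences of -0.07 and 0.03. The type II receptor chain Ifngr1 had signals of 119 and 104 with PBS and of 91.9 and 44.5 with TGFb2. Its groups did not overlap, and the log2 difference of -0.66 (interval -1.33 to 0.01, adjusted p = 0.43) ran, with an array left out, from -1.08 (without TGFb2 replicate 1) to -0.24 (without TGFb2 replicate 2).

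Ptpn6 (SHP-1), a phosphatase that restrains cytokine receptor signalling, differed by -0.37 (limma adjusted p = 0.51). Irf8, a transcription factor of monocytes and macrophages that interferon gamma also induces, had signals of 352 and 367 with PBS and of 460 and 514 with TGFb2. All TGFb2 values were higher, with a log2 difference of 0.42 and an interval of 0.05 to 0.79 (adjusted p = 0.36). Socs3, a feedback inhibitor of cytokine signalling, differed by 0.40 (adjusted p = 0.63) in its only tested probe set. The name of that probe set ends in _f_at, so its probes can match related genes. The other probe set of Socs3 lay at 11.9 and 9.8 with PBS and at 4.0 and 15.2 with TGFb2, overlapping.

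Of 34 other interferon-responsive genes on the array 31 were tested, and 0 rose and 0 fell, with 5 at an unadjusted p under 0.05 in limma (16.1%, 2 lower and 3 higher), beside 12.0% of all genes. The median difference was 0.01. The groups did not overlap for 10 genes that were lower and 4 that were higher, together 45.2% of the 31. Over all genes that share was 43.8%, with 21.7% lower and 22.2% higher. The chemokines Cxcl9 and Cxcl10, sensitive markers of an interferon response, lay below the filter. Samhd1, which depletes nucleotides needed by viruses, had signals of 311 and 401 with PBS and of 211 and 205 with TGFb2. Both TGFb2 arrays were lower, and the log2 difference was -0.72 with an interval of -1.15 to -0.29 (adjusted p = 0.15). Gbp7 differed by -0.45 with overlapping groups (adjusted p = 0.58), and by -0.76 without PBS replicate 2 and -0.14 without PBS replicate 1. Ube2l6, the enzyme that conjugates Isg15, had signals of 54.7 and 71.8 with PBS and of 125.7 and 91.3 with TGFb2, higher without overlap, with a log2 difference of 0.65 (adjusted p = 0.31). Fcgr1, the high-affinity Fc receptor and also a macrophage marker, differed by 1.13 with an interval of 0.62 to 1.65 (adjusted p = 0.066). The dimmer tested probe set of Fcgr1 differed by 1.26 (limma adjusted p = 0.0539). Both probe sets were higher without overlap, and neither passed.

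Of the macrophage markers all 9 on the array lay above the filter, and 0 rose or fell past the threshold, with 5 at an unadjusted p under 0.05 in limma, all 5 higher with TGFb2, where 12.0% of all genes reached that level in either direction. Of the 9 differences 6 were above 0 and 3 below. Their summed signal was 15816 to 16716 with PBS and 17776 to 18222 with TGFb2. Such a sum is set mostly by its brightest probe sets, here those of Cd68 and Lyz2, and does not weigh the markers alike. Of the markers of other cells 4 passed the threshold. Of 3 tested neutrophil markers only S100a8 passed, from 169.8 ± 58.1 with PBS to 615 ± 90.9 with TGFb2 (limma adjusted p = 0.0241). Camp and Elane did not (0.63 and 0.96). The other 6 lay below the filter, with the mean higher with TGFb2 for S100a9 and Cxcr2 and lower for Ltf, Mpo, Ly6g and Ngp. The summed signal of all 9 was 319 to 361 with PBS and 771 to 845 with TGFb2, with S100a8 the brightest. Of 8 tested fibroblast and mesothelium markers 2 rose and 1 fell (Col1a1 and Col5a2, and Dcn), and 5 did not pass. Of all genes tested 0.869% were called higher and 0.319% lower. The summed signal over 10 fibroblast and mesothelium markers was 1272 to 1977 with PBS and 1238 to 1355 with TGFb2, and these ranges overlapped. For the 5 other lists (eosinophils, mast cells, B cells, T and NK cells, dendritic cells) 0 markers passed, and the ranges of their summed signals overlapped between the groups. By its brightest tested probe set 1 marker of these lists was at an unadjusted p under 0.05 in limma, Cpa3, which was higher. The groups overlapped in the other, untested probe set of Cpa3. Dimmer tested probe sets also reached that level for Tpsb2, Ighm and Ms4a1, at log2 differences of 0.75, -0.61 and -1.07. The brightest probe sets of these genes did not, at 0.43, -0.61 and -0.08. Both Tpsb2 probe sets were higher without overlap. All 4 marker calls were lost when either TGFb2 replicate 1 or TGFb2 replicate 2 was left out (limma adjusted p 0.071 to 0.15), those of Col1a1 and Dcn also without PBS replicate 1 (0.054 and 0.051), and those of Col1a1 and Col5a2 also without PBS replicate 2 (0.068 and 0.18). The part of other cells in the result for Ifitm6 was not tested.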

How the data were processed

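Total RNA was labelled with biotin as cRNA and measured on 4 Affymetrix arrays. The deposited values are probe set intensities from MAS5, per the submitters' processing notes, which name no version; MAS5 reduces the probes of a set to 1 background-corrected signal. The trimmed mean (2%) averaged 150.1 over the 4 arrays, and no further scaling was applied in the main fit. Detection calls and array dates were not used here.

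Signals were taken to log2(signal + 15). Of 12488 probe sets 66 controls were left out, and the 7453 at or above the 40th percentile of the mean log2 level entered the linear model of limma 3.58.1 (R 4.3.3), with empirical Bayes variances that follow the intensity and a two-sided test of TGFb2 against PBS, with Benjamini-Hochberg adjustment over all probe sets tested and a threshold of 0.05. On simulated data for this comparison with 7453 probe sets, 39.85% of the 2-fold changes and 94.3% of the 4-fold changes were found, and 5.33% of its calls were false. The simulated noise was independent and normal, with variances drawn from the fitted model, and 200 changes were planted per run. These shares thus hold under the model and do not measure the share of false calls on the real arrays. The platform annotation gave the symbols, and for 36 of 36 probe sets of the list the gene ID led to the same symbol in GRCm38.p6. The genes, their roles and the other lists were chosen with earlier results of these data known, so no list was tested as a set. All genes of the list were named; of each pathway list, those past the threshold and the 2 with the largest difference in each direction, and of each marker list, those past the threshold. Ifnb1, Ifng, Ifnar1, Ifnar2, Cxcl9, Cxcl10, Cpa3, the macrophage markers and the other neutrophil markers were named beyond that rule. Promoter motifs were searched in RefSeq windows with Python 3.11.15.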

Additional observations from a re-analysis of the deposited data

How the results depend on the processing

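The differences of the 23 tested probe sets of the list were computed under 13 alternatives (pseudocount, normalization, filter, variance model, replicate number as a block, and each array left out). This gave 293 values, as a stricter filter left some of the dimmer probe sets out. Of the 23 probe sets 17 kept their sign and 6 did not. The sign changed only with an array left out. Over those fits the brighter probe set of Irf7 ran from -0.38 to 0.14 and the dimmer one from -0.049 to 0.32, Ifih1 from -0.21 to 0.091, Rsad2 from -0.19 to 0.074, Ifi35 from -0.19 to 0.24 and Ifitm1 from -0.016 to 0.43. The marker Adgre1 ran from -0.38 to 0.28. The number of genes of the list past the threshold was 1 (Ifitm6) in 7 of 14 alternatives, 0 without the filter and without the intensity trend, and 0 with any single array left out. The alternative counted here beyond the 13 above was a recount of the main fit over all 23 tested probe sets. Ifitm6 could only pass again in that recount. The median difference ran from -0.20 to -0.014 over the arrays left out, lowest without TGFb2 replicate 2.

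Over all probe sets 88 were called, 6 without the filter, 16 without the intensity trend and 11 to 42 with an array left out, where the lone array is assumed to vary like the other group. With the replicate block there were 320 calls over all probe sets, 3 in the list (Ifitm6, Usp18 at a limma adjusted p of 0.0413 and Ifitm3 at 0.0252) and 2 among the other interferon pathway genes (Samhd1, lower, and Fcgr1, higher). Nothing in the labels says that the numbers pair the arrays. Differences between replicate 1 and replicate 2 of both groups correlated at 0.15 across the tested probe sets, and with 2 arrays per group this cannot settle the pairing. The cause of the changes was not tested.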
